A study of Mus musculus with 12 samples.

Results

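The genes described are 10 of the 48440 genes in the deposited count table, chosen by symbol with earlier results of these data known. They are the oxysterol receptor genes Nr1h3 (LXRα) and Nr1h2 (LXRβ), the fatty acid receptor gene Pparg (PPARγ), their partner Rxra (RXRα), and 6 genes of cholesterol export and lipid handling, Abca1, Abcg1, Apoe, Mylip, Lpcat3 and Ch25h. Their symbols were each found once in the table, and all 10 had enough counts to be tested. RNA was sequenced from cultures of mouse macrophages derived from bone marrow, after enrichment of exonic RNA by capture probes, and the title of the series names the transcription factor IRF8. The 6 groups of 2 libraries each were CKO cells given interferon-γ (IFN-γ) at 100 U/mL for 24 h, WT cells given the same, CKO cells given interleukin-4 (IL-4) at 20 ng/mL for 24 h, WT cells given the same, untreated CKO cells and untreated WT cells. The labels do not name the gene that is deleted in CKO, the Cre driver, the strain, or the animals behind each library.

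LXRα and LXRβ are nuclear receptors that bind oxysterols, the oxidised products of cholesterol, and act as dimers with RXRα. In macrophages, which take up cholesterol from lipoproteins and dying cells, they switch on genes that move cholesterol out of the cell, and PPARγ, which senses fatty acids, acts upstream of some of them. IFN-γ drives macrophages toward killing of microbes, whereas IL-4 drives a repair state in which PPARγ is a known regulator.

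Library totals ran from 21287725 to 32717379 counts, and 16292 genes had enough counts to be tested. Levels are CPM, a gene's counts as a share of the scaled library total, differences are log2 fold changes with an approximate standard error (SE), and a gene was called where the adjusted p of edgeR's quasi-likelihood test was under 0.05. The labels do not say that the libraries of a group came from separate animals, so p-values measure the spread between these libraries, which may be technical. Irf8, counted over the whole gene, was higher in the libraries labelled CKO in all 3 treatments, for example at 293 and 248 CPM in untreated CKO libraries against 90.9 and 91.2 CPM in untreated WT libraries, so these counts do not check a deletion, and "CKO" and "WT" name what the labels say of each library. Untreated CKO library 1 stood apart from the rest, with 1.52% of its counts from mitochondrial genes against 2.12% to 3.25% in the other 11 libraries, and the named calls that were lost without it are marked as such.

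The macrophage label was checked on 11 markers, none of which was at 0 in any library. Their summed level was 4220.0 to 6013 CPM in the CKO libraries and 9769 to 15395 CPM in the WT libraries. All of that gap was lysozyme (Lyz2), at 12.6 to 28.0 CPM in CKO and 5845 to 11858 CPM in WT. Without it the order turned, as the other 10 markers summed to 4204 to 6000.2 CPM in CKO and 3537 to 3992 CPM in WT.

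Promoters are shown for Ch25h, Abca1 and Nr1h3, the 3 genes whose levels spanned the widest range over the 12 libraries among the 9 with a promoter window from RefSeq (build GRCm38.p6). Each window holds 250 bases before and 50 bases after an annotated transcription start, read 5′ to 3′ on the gene's own strand. Capitals mark a match to a relaxed LXR element, a direct repeat of the hexamer that nuclear receptors bind, spaced by 4 bases (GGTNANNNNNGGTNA, searched on both strands). The Abca1 window is chr4:53159846-53160145, the Nr1h3 window is chr2:91195067-91195366 and the Ch25h window is chr19:34475099-34475398, all on the minus strand of GRCm38. The table lists a second Nr1h3 start, whose window (chr2:91194986-91195285) overlaps the first and is not printed, though it was searched.
Abca1: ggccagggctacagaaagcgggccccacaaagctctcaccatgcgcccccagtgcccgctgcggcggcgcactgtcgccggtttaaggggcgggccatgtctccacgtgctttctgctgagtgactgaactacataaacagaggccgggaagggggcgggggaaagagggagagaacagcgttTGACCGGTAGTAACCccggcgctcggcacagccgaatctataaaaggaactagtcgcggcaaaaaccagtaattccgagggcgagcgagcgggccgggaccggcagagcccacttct
Nr1h3: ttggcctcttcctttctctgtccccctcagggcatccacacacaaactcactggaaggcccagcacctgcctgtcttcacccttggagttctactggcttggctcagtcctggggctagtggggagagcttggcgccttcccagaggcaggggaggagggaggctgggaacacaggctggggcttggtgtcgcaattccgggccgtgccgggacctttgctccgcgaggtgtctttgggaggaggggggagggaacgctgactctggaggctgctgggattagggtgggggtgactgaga
Ch25h: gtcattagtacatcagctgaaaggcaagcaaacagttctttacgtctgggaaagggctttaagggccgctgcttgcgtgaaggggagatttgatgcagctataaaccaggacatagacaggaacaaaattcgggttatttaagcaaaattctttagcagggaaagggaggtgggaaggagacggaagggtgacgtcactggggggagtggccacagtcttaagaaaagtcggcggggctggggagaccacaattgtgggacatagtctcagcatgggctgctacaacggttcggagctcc
The Abca1 match begins 67 bases before the start and reads TGACCGGTAGTAACC, the element on the opposite strand. It was the 1 match to this pattern among the 15 windows of the 9 members in the table, which does not hold Abcg1, and 0.718% of all 32851 windows held one. The same Abca1 window also holds an E box (CACGTG) 147 bases before the start, a motif present in 7.15% of all windows, and GC boxes (GGGCGG, either strand) at 163 and 97 bases before it, a motif present in 35.7%.

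Other motifs were searched on both strands in the same 15 windows. The hexamer AGGTCA was found at 28 and 9 bases before the first and second listed Pparg starts and at 87 and 48 bases before the second listed Rxra start, and 16.3% of all windows held it. No member's window held an interferon-stimulated response element (GAAANNGAAA), an interferon-γ activated site (TTCNNNGAA), the STAT6-type site TTCNNNNGAA or a direct repeat spaced by 1 base (GGTNANNGGTNA). Of all windows, 3.44% held the first of these, 8.3% the second, 6.95% the STAT6-type site and 1.1% the repeat. The STAT patterns and the repeats can share bases with each other, and a match is a description of letters only.

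The 10 genes differed widely in how much they varied. Between the lowest and the highest of the 12 libraries the level of Ch25h in CPM spanned 145-fold, though its lowest value rests on 3 counts, that of Abca1 13.04-fold, that of Abcg1 11.9-fold and that of Nr1h3 11.01-fold. Mylip spanned 6.35-fold, Apoe 5.92-fold and Pparg 4.27-fold. Rxra (2.07-fold), Nr1h2 (1.795-fold) and Lpcat3 (1.55-fold) spanned the least. Per kilobase of exon, untreated cells held most Apoe, at 1203 CPM per kb in CKO and 530 CPM per kb in WT, followed by Rxra at 30.9 and 23.2 CPM per kb in CKO and in WT. Nr1h2 stood at 16.4 CPM per kb in CKO and 13.1 CPM per kb in WT, and Nr1h3 at 5.75 CPM per kb in CKO and 1.99 CPM per kb in WT. Ch25h was lowest, at 0.0826 CPM per kb in untreated CKO cells and 0.386 CPM per kb in untreated WT cells. Capture of exons by probes can differ between genes, so the order of levels between genes is approximate.

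**Figure D1:**
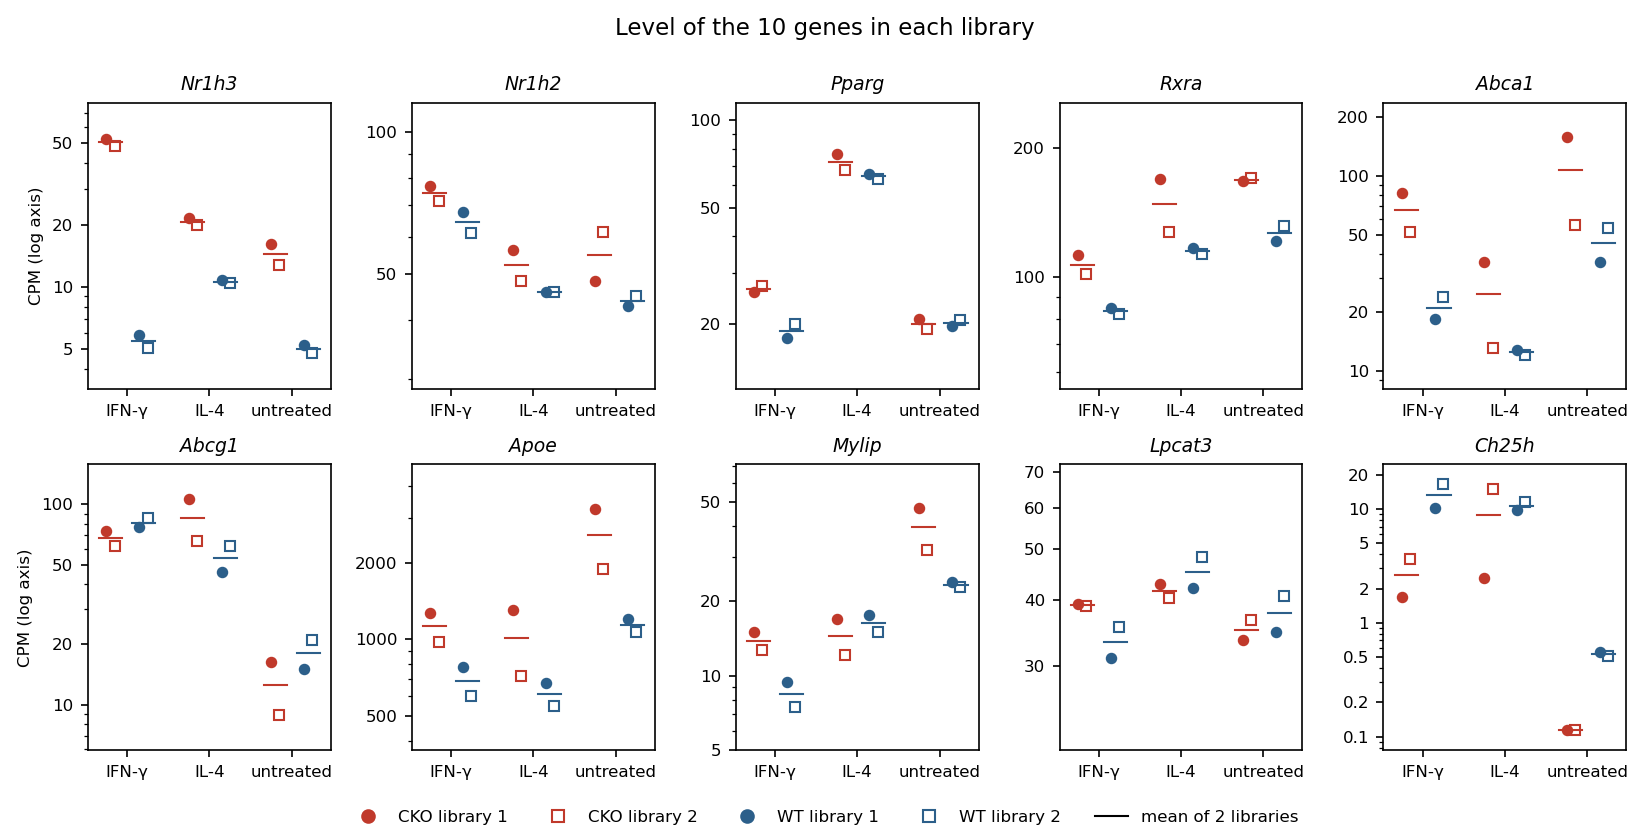
Level of each gene in CPM (log axis) in every library, by treatment, with CKO in red and WT in blue, filled circles for library 1, open squares for library 2 and a line at the mean. Nr1h3 after IFN-γ stands at 52.6 and 48.6 CPM in CKO and at 5.84 and 5.04 CPM in WT, and Abca1, Apoe and Ch25h show wide gaps between the CKO libraries of a group.

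Between genotypes, the receptor gene Nr1h3 was higher in CKO under all 3 treatments, and no member was called lower in CKO. After IFN-γ, Nr1h3, Pparg and Mylip were higher, 3 of 10 members, against 10.4% of all tested genes called higher, with none lower against 8.01% of all genes. After IL-4, Nr1h3 alone was higher, 1 of 10 against 1.41% of all genes, with none lower against 1.55%. Without cytokine, Nr1h3, Rxra, Apoe and Mylip were higher, 4 of 10 against 8.6% of all genes, with none lower against 9.37%. The untreated count was 2 without untreated CKO library 1 and 1 without untreated WT library 1 or 2, that after IFN-γ was 1 without IFN-γ CKO library 1 or 2 or IFN-γ WT library 1, and that after IL-4 was 2 without IL-4 CKO library 2. The count over all tested genes moved in the same fits. Without cytokine 2927 genes were called in either direction, but 914 without untreated CKO library 1, 866 and 891 without untreated WT library 1 and 2, and 5034 without untreated CKO library 2. After IFN-γ it was 2995 genes, but 1209 and 1496 without IFN-γ CKO library 1 and 2 and 1890 without IFN-γ WT library 1, and after IL-4 it was 482 genes, but 651 without IL-4 CKO library 2. Ch25h was called lower after IFN-γ without IL-4 CKO library 1 or 2, and after IL-4 without IL-4 CKO library 2. The members were chosen with results known, so a share above that of all genes is a description of these 10 genes only. In bulk RNA, fewer cells of a type and less RNA per cell cannot be told apart.

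Markers of other marrow cells moved with the genotype. The 12 neutrophil markers, none at 0 in any library, summed to 408 to 410.3 CPM after IFN-γ in CKO against 58.4 to 72.1 CPM in WT, to 173 to 193 CPM after IL-4 in CKO against 34.9 to 44.3 CPM in WT, and to 179 to 312 CPM in untreated CKO against 43.5 to 51.6 CPM in untreated WT. Of 11 tested, 10 were higher in CKO after IFN-γ, 9 after IL-4 and 10 without cytokine, against 10.4%, 1.41% and 8.6% of all genes. The 10 monocyte and progenitor markers, none at 0, summed to 518 to 527 CPM in CKO against 187 to 250.3 CPM in WT after IFN-γ and to 683 to 747 CPM against 290.2 to 309 CPM without cytokine, with 8 and 9 of 10 higher in CKO. After IL-4 they summed to 856 to 930.0 CPM in CKO against 610 to 908 CPM in WT, with 6 of 10 higher. The part of these markers in the genotype differences of the 10 genes was not tested.

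**Figure D2:**
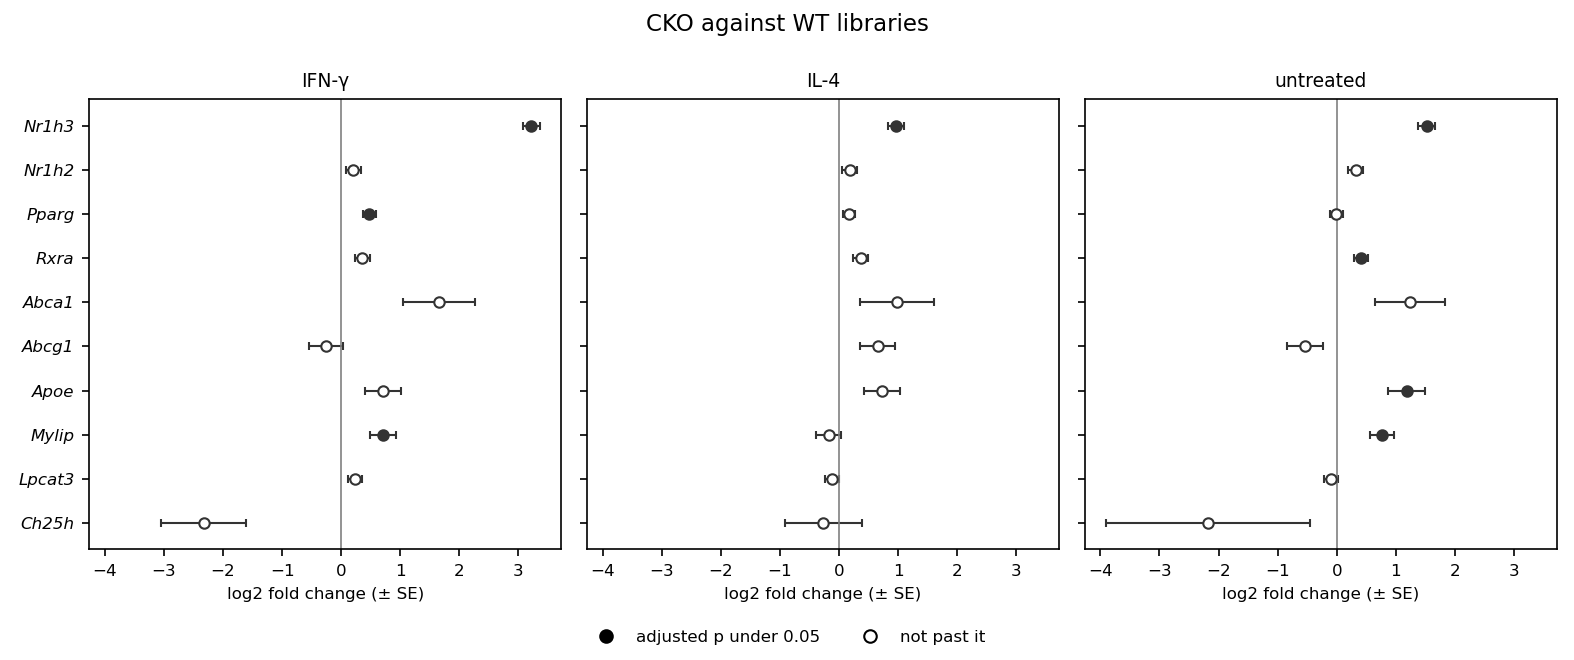
Log2 fold change of each gene in CKO over WT libraries (± SE, n = 2 libraries per group) after IFN-γ, after IL-4 and without cytokine, filled where the edgeR adjusted p was under 0.05. Nr1h3 is filled in all 3 panels, at 3.22 after IFN-γ, 0.97 after IL-4 and 1.53 without cytokine.

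The cytokines changed members in both genotypes, and only the IFN-γ response of Nr1h3 differed between genotypes past the test. After IFN-γ in CKO, Nr1h3, Nr1h2, Pparg, Abcg1 and Ch25h rose and Rxra, Apoe and Mylip fell, 5 and 3 of 10 members, against 14.7% and 11.9% of all tested genes called higher and lower. After IFN-γ in WT, Nr1h2, Abcg1 and Ch25h rose and Rxra and Mylip fell, 3 and 2 of 10, against 12.4% and 11.8% of all genes. After IL-4 in CKO, Nr1h3, Pparg, Abcg1 and Ch25h rose and Abca1, Apoe and Mylip fell, 4 and 3 of 10, against 11.2% and 11.3%. After IL-4 in WT, Nr1h3, Pparg, Abcg1 and Ch25h rose, 4 of 10 against 6.64%, and none fell, against 5.59%. Among the risers after IFN-γ, 2 were called in CKO without IFN-γ CKO library 1 or 2 and 3 without untreated CKO library 1 or 2 or IL-4 WT library 1, and 1 was called in WT without untreated WT library 1. After IL-4, 2 risers were called in CKO without untreated CKO library 2 and 2 in WT without untreated WT library 1 or IL-4 WT library 2. The IL-4 fallers in CKO came to 1 without untreated CKO library 1 or IL-4 CKO library 2, and in WT Apoe was called lower without IL-4 CKO library 1 or 2. Which genotype had more calls depended on the fit, and this difference of counts was not tested. In a fit to the compared groups alone IFN-γ called 6 members in CKO and 7 in WT, against 19.9% and 24% of all genes. For IL-4 that fit called 4 members in CKO and 7 in WT, against 7.78% and 23.2% of all genes. Without IFN-γ CKO library 2, IFN-γ called 4 in CKO and 5 in WT.

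Deviations of same-numbered libraries correlated by 0.100 to 0.431 within a genotype and by −0.005 to 0.256 across genotypes, ranges that overlap. A fit with library number within genotype as a replicate block is given where it changed a call. The numbers come from the library titles, and the labels do not say what they stand for, so its calls describe that fit only. In WT it called Abca1, Apoe and Mylip lower after IL-4, with log2 fold changes of −1.84, −0.90 and −0.52 (edgeR adjusted p = 0.000511, 5.61e-05 and 0.00535). After IFN-γ in WT it called Abca1 and Apoe lower, at −1.09 and −0.73 (edgeR adjusted p = 0.00424 and 0.000162). The IL-4 response differed between genotypes, CKO minus WT, by 1.20 for Abcg1 (edgeR adjusted p = 0.0136) and by −0.93 for Mylip (edgeR adjusted p = 0.0193) in that fit. IFN-γ set against IL-4 gave higher Abca1 in CKO (1.58, edgeR adjusted p = 0.000365) and in WT (0.75, 0.0324), higher Abcg1 in WT (0.60, 0.00244) and lower Ch25h in CKO (−1.55, 0.00183). No call of the fit without the block was lost.

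The difference between the genotypes' responses was called higher in CKO for 1 member, Nr1h3 after IFN-γ, against 2.07% of all genes, and called lower for none, against 0.651%. For IL-4 the edgeR interaction called no member in either direction, against 0.0246% of all genes higher and 0.0123% lower. DESeq2 called 0 members there, against 0.246% of all genes in either direction. Set against IL-4, IFN-γ gave higher Nr1h3 and Nr1h2 and lower Pparg and Rxra in CKO, 2 and 2 of 10 against 16.3% and 13.7% of all genes. In WT it gave higher Nr1h2 and lower Nr1h3, Pparg, Rxra, Mylip and Lpcat3, 1 and 5 of 10 against 14.2% and 13.8%. The 5 came to 3 without any 1 of the 4 compared WT libraries, and the call of Nr1h2 was lost without IFN-γ WT library 1 or either IL-4 WT library. In CKO, 1 was higher without IFN-γ CKO library 1 or IL-4 CKO library 2, and 1 was lower without IFN-γ CKO library 2. The IL-4 interaction called Mylip lower without untreated CKO library 2. All comparisons with untreated cells of a genotype share the same 2 untreated libraries.

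Cell markers moved with the cytokines too. The 8 dendritic cell markers summed to 9.22 to 11.3 CPM in CKO and 51.5 to 61.5 CPM in WT after IFN-γ, to 10.7 to 11.4 CPM in CKO and 8.11 to 9.07 CPM in WT after IL-4, and to 2.42 to 3.95 CPM in CKO and 2.35 to 2.94 CPM in WT without cytokine. Clec9a alone reached 52.7 CPM in WT and 6.47 CPM in CKO, and no other of the 8 exceeded 7.21 CPM in any library. The high sum in WT after IFN-γ therefore rests mostly on 1 gene. Of 7 tested, 3 were higher after IFN-γ in CKO and 4 in WT, against 14.7% and 12.4% of all genes. After IL-4, 2 were higher in either genotype, against 11.2% in CKO and 6.64% in WT. Between genotypes, 3 were lower in CKO after IFN-γ, 0 after IL-4 and 1 without cytokine, against 8.01%, 1.55% and 9.37% of all genes. Under any treatment 0 were higher, against 10.4%, 1.41% and 8.6% in the same order. Cd209a was at 0 in 1 CKO and 1 WT library, Siglech in 1 CKO library and Clec9a in 1 WT library. Of the neutrophil markers, 6 of 11 rose after IFN-γ in CKO, against 14.7% of all genes. In WT 1 rose and 1 fell, against 12.4% and 11.8%. Of the 10 monocyte and progenitor markers, 5 rose and 2 fell after IFN-γ in CKO, against 14.7% and 11.9% of all genes. As many did in WT, against 12.4% and 11.8%. After IL-4, 1 rose and 4 fell in CKO, against 11.2% and 11.3%, and 1 rose and 3 fell in WT, against 6.64% and 5.59%. Their summed level, given above, was 856 to 930.0 CPM after IL-4 against 683 to 747 CPM without cytokine in CKO. In WT it was 610 to 908 CPM after IL-4 against 290.2 to 309 CPM without cytokine. Chil3 alone reached 754 CPM in a WT library and 693 CPM in a CKO library. The 754 CPM exceeds every other WT sum, so the sum of 908 CPM rests mostly on this gene. The part of Chil3 in the CKO sums was not tested. In both genotypes more of the 10 markers fell than rose after IL-4. Their median log2 fold change was −0.54 in CKO and −0.49 in WT. The higher sums after IL-4 therefore do not describe a rise of the 10 markers as a set. The part of these markers in the responses of the 10 genes was not tested.

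**Figure D3:**
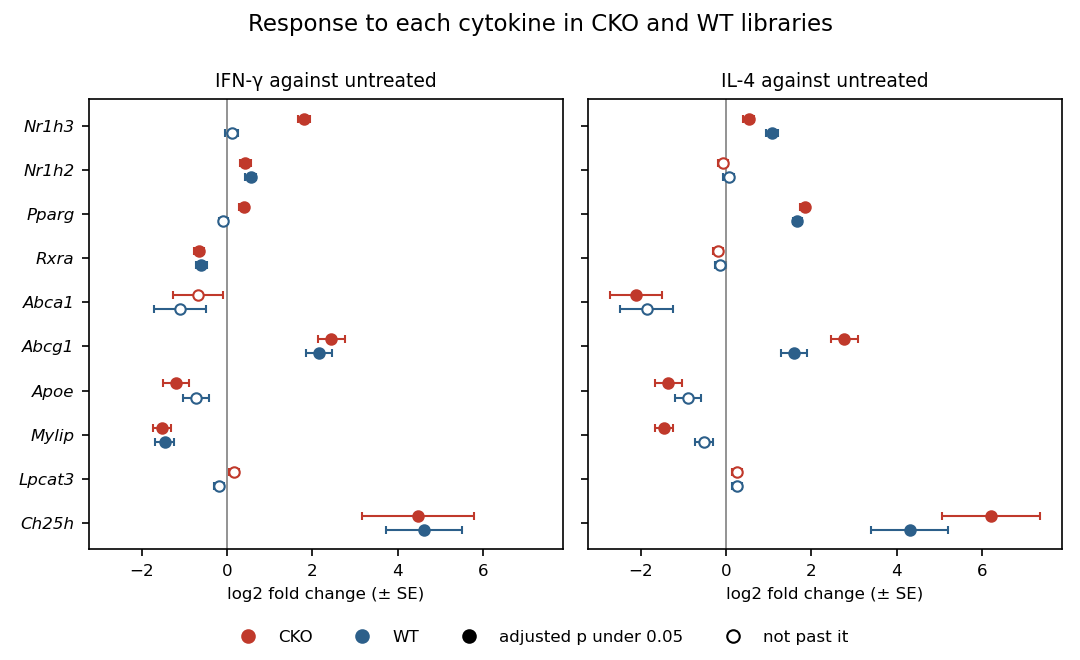
Log2 fold change of each gene after IFN-γ (left) and after IL-4 (right) over untreated libraries (± SE, n = 2 libraries per group), with CKO in red above WT in blue and filled points where the edgeR adjusted p was under 0.05. After IFN-γ the points of Nr1h3 lie apart, at 1.81 in CKO and 0.12 in WT, while Abcg1 and Ch25h rise and Mylip falls in both genotypes.

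Nr1h3 (GRCm38 chr2:91184061-91202834, minus strand) encodes LXRα, the LXR form that is enriched in macrophages, liver and gut. After IFN-γ it stood at 52.6 and 48.6 CPM in the CKO libraries, against 5.84 and 5.04 CPM in the WT libraries. After IL-4 it stood at 21.6 and 20.1 CPM in CKO, against 10.8 and 10.5 CPM in WT, and without cytokine at 16.2 and 12.8 CPM in CKO, against 5.24 and 4.78 CPM in WT. Every CKO library was above every WT library, also across treatments, and the CKO libraries given IFN-γ were the highest of all 12. The log2 fold change of CKO over WT was 3.22 ± 0.15 after IFN-γ (9.32-fold, edgeR adjusted p = 1.95e-07), 0.97 ± 0.14 after IL-4 (1.96-fold, edgeR adjusted p = 0.0023) and 1.53 ± 0.14 without cytokine (2.88-fold, edgeR adjusted p = 6.53e-05). Each of these 3 calls was kept when any 1 of the 12 libraries was left out. Its exons share 34 bases, 1.35% of their length, with Gm13783 on the same strand, whose reads cannot be told apart there.

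The IFN-γ response of Nr1h3 differed between the genotypes. IFN-γ raised it by 1.81 ± 0.13 on the log2 scale in CKO (edgeR adjusted p = 8.34e-07), whereas in WT the groups overlapped and the log2 fold change was 0.12 ± 0.15 (edgeR adjusted p = 0.658). The difference of these responses, CKO minus WT, was 1.69 ± 0.20 (edgeR adjusted p = 0.00123) and was kept in all 12 fits that left out a library. IL-4 raised Nr1h3 by 0.53 ± 0.13 in CKO (edgeR adjusted p = 0.0147) and by 1.08 ± 0.15 in WT (edgeR adjusted p = 0.000408). The rise in CKO was not called without IL-4 CKO library 1 (0.45, edgeR adjusted p = 0.0728), without untreated CKO library 2 (0.35, edgeR adjusted p = 0.0686), or in a fit to the 4 compared libraries alone (0.53, edgeR adjusted p = 0.129). The IL-4 responses differed by −0.56, with an unadjusted p of 0.0154 and an edgeR adjusted p of 0.773. Set against IL-4, IFN-γ gave 1.28 higher Nr1h3 on the log2 scale in CKO (edgeR adjusted p = 1.06e-05), and in WT it fell by 0.97 (edgeR adjusted p = 0.000313).

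Nr1h2 (chr7:44549616-44553951, minus strand) encodes LXRβ, which is expressed in most tissues, and it changed little. After IFN-γ it stood at 76.9 and 71.4 CPM in CKO and 67.9 and 61.1 CPM in WT, after IL-4 at 56.2 and 48.3 CPM in CKO and 45.9 and 45.9 CPM in WT, and without cytokine at 48.3 and 61.6 CPM in CKO and 42.8 and 45.0 CPM in WT. The CKO libraries were above the WT libraries under each treatment, but the edgeR adjusted p was 0.296 after IFN-γ and 0.0951 without cytokine, and no genotype difference was called. IFN-γ raised Nr1h2 by 0.43 ± 0.13 on the log2 scale in CKO (edgeR adjusted p = 0.024) and by 0.55 ± 0.13 in WT (edgeR adjusted p = 0.00684). The rise in CKO was not called without untreated CKO library 1 (0.25, edgeR adjusted p = 0.194), IFN-γ CKO library 1 (0.35, 0.184), IFN-γ CKO library 2 (0.50, 0.0578) or IL-4 WT library 1 (0.41, 0.052), and the edgeR adjusted p was 0.0907 in a fit to the 4 compared libraries. That in WT was not called without untreated WT library 1 (edgeR adjusted p = 0.0594) or IFN-γ WT library 1 (edgeR adjusted p = 0.0514). Without untreated CKO library 1, CKO was higher than WT without cytokine (0.50, edgeR adjusted p = 0.0368). Set against IL-4, IFN-γ gave 0.51 higher Nr1h2 on the log2 scale in CKO (edgeR adjusted p = 0.00911, lost without IFN-γ CKO library 1 or IL-4 CKO library 2) and 0.49 higher in WT (edgeR adjusted p = 0.0121, lost without IFN-γ WT library 1 or either IL-4 WT library).

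The balance of the LXR transcripts differed between the groups. Per kilobase of exon, Nr1h3 made up 47.7% and 47.6% of both LXR transcripts in the CKO libraries given IFN-γ, against 10.3% and 9.91% in the WT libraries given IFN-γ. After IL-4 the share was 33.8% and 35.7% in CKO, against 23.8% and 23.3% in WT. Without cytokine it was 30.8% and 21.7% in CKO, against 14.03% and 12.4% in WT. The shares of the CKO and WT libraries did not overlap under any treatment. The lowest shares were those of WT after IFN-γ, where Nr1h2 rose and Nr1h3 was not called. The shares are a description of the levels tested above.

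**Figure D4:**
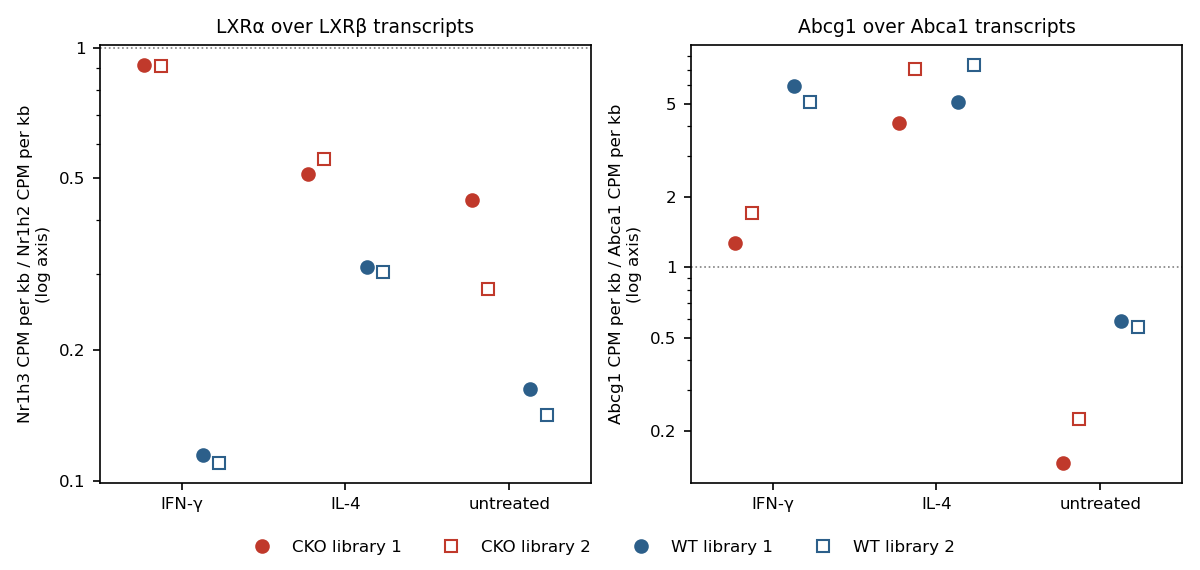
Ratio of Nr1h3 to Nr1h2 (left) and of Abcg1 to Abca1 (right), each in CPM per kb of exon, in every library on a log axis, with CKO in red and WT in blue, filled circles for library 1 and open squares for library 2. The ratio of Nr1h3 to Nr1h2 reaches 0.912 and 0.908 in CKO after IFN-γ against 0.115 and 0.110 in WT, and that of Abcg1 to Abca1 is below 1 in all untreated libraries and above 1 in all treated ones.

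Pparg (chr6:115360951-115490399, plus strand) encodes PPARγ, and its level followed IL-4 in both genotypes. After IL-4 it stood at 76.6 and 67.5 CPM in CKO and 65.2 and 63.1 CPM in WT, against 20.9 and 19.2 CPM in untreated CKO and 19.7 and 20.6 CPM in untreated WT. All libraries given IL-4 were above all others. The log2 fold change over untreated cells was 1.85 ± 0.11 in CKO (3.60-fold, edgeR adjusted p = 5.13e-07) and 1.67 ± 0.11 in WT (3.19-fold, edgeR adjusted p = 1.28e-06), both kept in all 12 fits that left out a library. Set against IL-4, IFN-γ gave lower Pparg, with log2 fold changes of −1.45 in CKO (edgeR adjusted p = 6.61e-07) and −1.76 in WT (edgeR adjusted p = 1.6e-07).

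After IFN-γ Pparg was slightly higher in CKO. The libraries held 25.8 and 26.9 CPM in CKO and 17.9 and 20.0 CPM in WT after IFN-γ, a log2 fold change of 0.48 ± 0.11 (edgeR adjusted p = 0.0104). The call was lost without IFN-γ CKO library 1 (edgeR adjusted p = 0.0751), IFN-γ CKO library 2 (0.0722) or IFN-γ WT library 1 (0.0673). IFN-γ raised Pparg in CKO by 0.40 ± 0.11 (edgeR adjusted p = 0.0163), a call lost without IFN-γ CKO library 1 (0.0912), IFN-γ CKO library 2 (0.0991) or untreated CKO library 2 (0.0671), and in a fit to the 4 compared libraries (0.0859). In WT the log2 fold change was −0.09 (edgeR adjusted p = 0.647), and the difference of the responses, 0.48, had an edgeR adjusted p of 0.152. Without cytokine the genotypes overlapped, with a log2 fold change of −0.01 (edgeR adjusted p = 0.97).

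Rxra (chr2:27676440-27762957, plus strand) encodes the shared partner of LXR and PPAR receptors. It stood at 112 and 101 CPM in CKO and 84.8 and 82.2 CPM in WT after IFN-γ, and at 167 and 170.0 CPM in untreated CKO and 121 and 132 CPM in untreated WT. After IL-4 it stood at 169.6 and 127 CPM in CKO and 117 and 113 CPM in WT, and no genotype difference was called there, except without IL-4 CKO library 2 (0.58, edgeR adjusted p = 0.0149). The libraries given IFN-γ were below those of the other treatments within each genotype. IFN-γ lowered Rxra in CKO (−0.66 ± 0.12 on the log2 scale, edgeR adjusted p = 0.0018) and in WT (−0.60 ± 0.12, edgeR adjusted p = 0.00355), calls kept in all 12 fits that left out a library. Without cytokine Rxra was higher in CKO by 0.41 ± 0.12 (edgeR adjusted p = 0.0392). That call was lost without untreated CKO library 1, untreated WT library 1 or 2, IFN-γ CKO library 1 or 2, or either IL-4 WT library, at log2 fold changes of 0.35 to 0.47 with edgeR adjusted p-values of 0.0541 to 0.194 (0.44 and 0.116 without untreated CKO library 1), and in a fit to the 4 compared libraries (edgeR adjusted p = 0.0827). Against IL-4, IFN-γ gave lower Rxra, at −0.47 in CKO (edgeR adjusted p = 0.0117) and −0.46 in WT (edgeR adjusted p = 0.0142). The call in CKO was lost without IL-4 CKO library 1 (−0.25, 0.112) or IFN-γ CKO library 2 (−0.40, 0.113). That in WT was lost without any 1 of the 4 libraries compared, which are both IFN-γ WT and both IL-4 WT libraries, with edgeR adjusted p-values of 0.0529 to 0.106.

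Abca1 (chr4:53030787-53159895, minus strand) encodes the pump that loads cholesterol and phospholipid onto lipid-poor apolipoprotein A-I. It stood at 82.0 and 51.4 CPM in CKO and 18.4 and 23.9 CPM in WT after IFN-γ, at 36.3 and 13.2 CPM in CKO and 12.8 and 12.1 CPM in WT after IL-4, and at 158 and 55.9 CPM in untreated CKO and 36.4 and 54.3 CPM in untreated WT. The CKO libraries were above the WT libraries under each treatment, but library 1 of each CKO group was far above library 2. The log2 fold change of CKO over WT was 1.66 ± 0.61 after IFN-γ (edgeR adjusted p = 0.107), 0.98 after IL-4 (edgeR adjusted p = 0.57) and 1.24 ± 0.59 without cytokine (edgeR adjusted p = 0.189), and none passed the test, while DESeq2 gave an adjusted p of 0.042 after IFN-γ. The value after IL-4 was 0.08 without IL-4 CKO library 1 and 1.56 without IL-4 CKO library 2. That without cytokine was 0.31 without untreated CKO library 1 (edgeR adjusted p = 0.814).

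IL-4 lowered Abca1 in CKO, where the log2 fold change was −2.12 ± 0.61 (edgeR adjusted p = 0.0449). The value was −1.19 without untreated CKO library 1 (edgeR adjusted p = 0.268) and −1.56 without IL-4 CKO library 2 (edgeR adjusted p = 0.212). The call was also lost without any 1 of the 6 WT libraries or of the IFN-γ CKO libraries, with log2 fold changes of −2.13 to −2.11 and edgeR adjusted p-values of 0.0575 to 0.0782, and in a fit to the 4 compared libraries (edgeR adjusted p = 0.13). In WT the log2 fold change after IL-4 was −1.86 (edgeR adjusted p = 0.114), and DESeq2 gave an adjusted p of 0.0262. After IFN-γ it was −0.68 in CKO (edgeR adjusted p = 0.454), where the sign turned without untreated CKO library 1 (0.24), and −1.10 in WT (edgeR adjusted p = 0.259).

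Abcg1 (chr17:31057675-31117988, plus strand) encodes the pump that passes cholesterol on to mature high-density lipoprotein, and it rose with both cytokines. After IFN-γ it stood at 73.6 and 62.1 CPM in CKO and 77.2 and 85.1 CPM in WT, and after IL-4 at 106 and 65.4 CPM in CKO and 46.1 and 62.3 CPM in WT. Untreated libraries held 16.3 and 8.88 CPM in CKO and 15.1 and 21.1 CPM in WT, below every treated library. The log2 fold change over untreated cells was 2.44 ± 0.32 in CKO (edgeR adjusted p = 0.000216) and 2.16 ± 0.31 in WT (edgeR adjusted p = 0.000454) after IFN-γ, and 2.78 ± 0.32 in CKO (edgeR adjusted p = 0.000186) and 1.58 ± 0.31 in WT (edgeR adjusted p = 0.00721) after IL-4. The last call was lost without untreated WT library 1 (1.35, edgeR adjusted p = 0.0844) or IL-4 WT library 2 (1.33, edgeR adjusted p = 0.0601), and the other 3 were kept in all 12 such fits. The IL-4 responses differed by 1.19 on the log2 scale, with an unadjusted p of 0.0188 and an edgeR adjusted p of 0.773. The CKO libraries lay below the WT libraries after IFN-γ and above them after IL-4. No genotype difference was called, with log2 fold changes of −0.26 after IFN-γ, 0.66 after IL-4 and −0.54 without cytokine. The last value was −1.02 without untreated CKO library 1, −0.13 without untreated CKO library 2 and −0.28 without untreated WT library 2, and that after IL-4 was 0.27 without IL-4 CKO library 1. After IFN-γ the value was −0.41 without IFN-γ CKO library 1 and −0.13 without IFN-γ CKO library 2.

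The pumps differed in their response. Per kilobase of exon, the ratio of Abcg1 to Abca1 was 1.27 and 1.71 in CKO and 5.96 and 5.07 in WT after IFN-γ, and 4.15 and 7.06 in CKO and 5.10 and 7.29 in WT after IL-4. Without cytokine it was 0.146 and 0.226 in CKO and 0.589 and 0.553 in WT. The ratio was lower in CKO than in WT after IFN-γ and without cytokine, whereas after IL-4 the genotypes overlapped.

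Apoe (chr7:19696109-19699188, minus strand) encodes apolipoprotein E, which macrophages secrete and which accepts cholesterol from the pumps. It stood at 1273 and 973 CPM in CKO and 775 and 601 CPM in WT after IFN-γ, at 1301 and 716 CPM in CKO and 672 and 549 CPM in WT after IL-4, and at 3249 and 1893 CPM in untreated CKO and 1202 and 1065 CPM in untreated WT. The untreated CKO libraries were the highest of all 12, and CKO libraries were above WT libraries under each treatment. Without cytokine Apoe was higher in CKO by 1.18 ± 0.31 on the log2 scale (2.27-fold, edgeR adjusted p = 0.0278). The value was 0.75 without untreated CKO library 1 (edgeR adjusted p = 0.237), and the call was also lost without untreated WT library 1 (edgeR adjusted p = 0.111) or 2 (edgeR adjusted p = 0.156). After IFN-γ and after IL-4 the log2 fold changes were 0.71 ± 0.31 (edgeR adjusted p = 0.14) and 0.72 (edgeR adjusted p = 0.319).

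Both cytokines lowered Apoe in CKO. The log2 fold change was −1.20 ± 0.31 after IFN-γ (edgeR adjusted p = 0.016) and −1.35 ± 0.31 after IL-4 (edgeR adjusted p = 0.0122). Without untreated CKO library 1 these were −0.77 (edgeR adjusted p = 0.144) and −0.91 (edgeR adjusted p = 0.117). The calls were also lost without IFN-γ CKO library 2 (−1.002, edgeR adjusted p = 0.13) and without IL-4 CKO library 2 (−0.99, edgeR adjusted p = 0.0812), and that after IL-4 in a fit to the 4 compared libraries (edgeR adjusted p = 0.0551). In WT the values were −0.72 after IFN-γ (edgeR adjusted p = 0.127) and −0.89 after IL-4 (edgeR adjusted p = 0.0969). Neither response differed between genotypes past the test.

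Mylip (chr13:45389742-45412022, plus strand) encodes a ubiquitin ligase, also called IDOL, that limits the uptake of lipoprotein cholesterol. It stood at 14.97 and 12.7 CPM in CKO and 9.44 and 7.48 CPM in WT after IFN-γ, at 16.8 and 12.1 CPM in CKO and 17.6 and 14.96 CPM in WT after IL-4, and at 47.6 and 32.0 CPM in untreated CKO and 23.9 and 22.7 CPM in untreated WT. Mylip fell after IFN-γ, with log2 fold changes of −1.52 ± 0.21 in CKO (edgeR adjusted p = 0.000211) and −1.46 ± 0.22 in WT (edgeR adjusted p = 0.000373). After IL-4 it fell in CKO (−1.46 ± 0.21, edgeR adjusted p = 0.000512), and these 3 calls were kept in all 12 fits that left out a library. In WT the value after IL-4 was −0.52 (edgeR adjusted p = 0.147). The IL-4 responses differed by −0.94, with an unadjusted p of 0.00808 and an edgeR adjusted p of 0.748.

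Mylip was higher in CKO after IFN-γ and without cytokine, where the genotypes did not overlap, but not after IL-4, where they did. The log2 fold change was 0.71 ± 0.22 after IFN-γ (edgeR adjusted p = 0.0435) and 0.77 ± 0.20 without cytokine (edgeR adjusted p = 0.0256). The call after IFN-γ was lost without IFN-γ CKO library 1 (0.57, edgeR adjusted p = 0.271), IFN-γ CKO library 2 (0.84, 0.0809), IFN-γ WT library 1 (0.90, 0.0681), IFN-γ WT library 2 (0.56, 0.223), or any of the untreated or IL-4 WT libraries, with edgeR adjusted p-values of 0.0579 to 0.0682. The call without cytokine was lost without untreated CKO library 1 (0.47, edgeR adjusted p = 0.202), untreated WT library 1 (0.81, 0.105) or untreated WT library 2 (0.73, 0.135), and in a fit to the 4 compared libraries (0.78, 0.0733). Set against IL-4, IFN-γ gave lower Mylip in WT (−0.94, edgeR adjusted p = 0.0068), which was not called without IL-4 WT library 1 (−0.81, 0.0645) or IFN-γ WT library 2 (−0.77, 0.0706).

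Lpcat3 (chr6:124663027-124704418, plus strand) encodes an acyltransferase that builds polyunsaturated phospholipids into membranes, and it varied least of the 10. Its libraries held 39.4 and 39.0 CPM in CKO and 31.1 and 35.6 CPM in WT after IFN-γ, 43.1 and 40.5 CPM in CKO and 42.2 and 48.4 CPM in WT after IL-4, and 33.7 and 36.8 CPM in untreated CKO and 34.9 and 40.8 CPM in untreated WT. Neither the genotype nor a cytokine against untreated cells gave a call. Compared with IL-4, IFN-γ gave lower Lpcat3 in WT (−0.44, edgeR adjusted p = 0.0152), a call lost without IFN-γ WT library 1 (−0.34, 0.12) or IL-4 WT library 2 (−0.33, 0.163). Its exons share 334 bases, 10.2% of their length, with Emg1 on the opposite strand, and its level is uncertain because the sources used here do not give the strand setting of the counting.

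Ch25h (chr19:34473778-34475164, minus strand), a gene of 1 exon, encodes cholesterol 25-hydroxylase, which makes the oxysterol 25-hydroxycholesterol, and it rose with both cytokines. It stood at 1.69 and 3.61 CPM in CKO and 10.1 and 16.5 CPM in WT after IFN-γ, and at 2.496 and 15.1 CPM in CKO and 9.70 and 11.6 CPM in WT after IL-4. Untreated libraries held 0.114 and 0.115 CPM in CKO, from 3 and 4 counts, and 0.559 and 0.512 CPM in WT, from 16 and 15 counts. Every treated library was above every untreated one, and the 2 IL-4 CKO libraries lay far apart. IFN-γ raised Ch25h by 4.48 ± 1.31 on the log2 scale in CKO (edgeR adjusted p = 0.0363) and 4.63 ± 0.89 in WT (edgeR adjusted p = 0.00557). IL-4 raised it by 6.22 ± 1.15 in CKO (edgeR adjusted p = 0.00651) and 4.30 ± 0.90 in WT (edgeR adjusted p = 0.0169).

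Each of these Ch25h calls was lost in some fits that left out a library. The IFN-γ call in WT was lost without untreated WT library 1 (edgeR adjusted p = 0.051) or 2 (0.0524). In CKO it was lost without any 1 of the 4 compared libraries, untreated CKO library 1 or 2 or IFN-γ CKO library 1 or 2, or without an untreated or IL-4 WT library, with log2 fold changes of 3.85 to 4.89 and edgeR adjusted p-values of 0.0532 to 0.199. The IL-4 call in CKO was lost without untreated CKO library 1 (edgeR adjusted p = 0.0834) or 2 (0.0513), and that in WT without any 1 of the 4 compared libraries, either untreated or either IL-4 WT library, with edgeR adjusted p-values of 0.059 to 0.125. Ch25h exons share 159 bases, 11.5% of their length, with Gm26902 on the opposite strand.

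Between genotypes Ch25h was not called under any treatment. After IFN-γ the CKO libraries were both below the WT libraries, with a log2 fold change of −2.33 ± 0.72 (edgeR adjusted p = 0.0585), and DESeq2 gave an adjusted p of 0.0251. Without IL-4 CKO library 1 or 2 the edgeR adjusted p was 0.00054 and 0.000589. Without cytokine the value was −2.18 ± 1.72 (edgeR adjusted p = 0.414). After IL-4 the groups overlapped and the value was −0.26 (edgeR adjusted p = 0.924). Without IL-4 CKO library 2, the higher of the 2, it was −2.07 (edgeR adjusted p = 0.0201).

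The genes of most similar pattern were found over all 12 libraries, as the smallest root mean square difference of log2 CPM after centring each gene. Those nearest to Nr1h3, at wider distances than those of Pparg and Abca1 below, were Tnfrsf1b (0.65), a receptor for tumour necrosis factor, then Msi2 (0.65), Ggt5 (0.66), Wdfy1 (0.67) and Tmem51 (0.67). Their likeness is partial, as Ggt5 averaged 22.2 CPM after IFN-γ and 23.3 CPM without cytokine in CKO, where Nr1h3 rose. Tnfrsf1b averaged 563 CPM in CKO and 152 CPM in WT after IFN-γ, 367 CPM in CKO and 228 CPM in WT after IL-4, and 414 CPM in CKO and 230.2 CPM in WT without cytokine. Nearest to Pparg were Clcn3 (0.19), a chloride transporter gene, Inpp5a (0.22) and Il6st (0.23), the shared receptor subunit for interleukin-6 cytokines. Clcn3 averaged 77.5 CPM in CKO and 72.5 CPM in WT after IFN-γ, 226 CPM in CKO and 210.3 CPM in WT after IL-4, and 83.9 CPM in CKO and 77.9 CPM in WT without cytokine. Nearest to Abca1 were Clec4n (0.42), Itga6 (0.48) and Peli2 (0.49), and nearest to Ch25h, at wider distances, were Flrt2 (0.89), the chemokine gene Ccl12 and Abtb2 (1.08). Among the 10 genes themselves the closest pair was Rxra and Lpcat3 (0.34), which both varied little.

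The other genes of these pathways were taken from lists chosen with earlier results of these data known, and the median log2 fold change over all tested genes lay between −0.02 and 0.02 in every comparison. The shares of all tested genes called, given above for the 10 genes, are repeated beside the counts. Of 23 further LXR target genes, 18 were tested. Between CKO and WT, 4 were higher and 3 lower after IFN-γ (median 0.17), against 10.4% and 8.01% of all genes. After IL-4, 1 was higher and 1 lower (median −0.16, with 1 to 3 higher and 0 to 2 lower when a library was left out), against 1.41% and 1.55%. Without cytokine, 5 were higher and 7 lower (median 0.05), against 8.6% and 9.37%. The untreated counts fell to 3 higher and 2 lower without untreated CKO library 1, to 3 higher and 3 lower without untreated WT library 2, and to 4 lower without untreated WT library 1, and those after IFN-γ to 2 higher without IFN-γ WT library 1 or IFN-γ CKO library 2 and to 1 lower without IFN-γ WT library 1 or IFN-γ CKO library 1. The LXR targets did not move as a block. Cd5l, a secreted inhibitor of cell death in macrophages, was higher in CKO by 2.45 ± 0.29 after IFN-γ (edgeR adjusted p = 0.00027) and by 2.18 ± 0.27 without cytokine (edgeR adjusted p = 0.000718). Tgm2, a transglutaminase, was higher by 1.18 ± 0.13, 1.31 ± 0.13 and 1.64 ± 0.13 after IFN-γ, after IL-4 and without cytokine. Scd2, a fatty acid desaturase, was lower in CKO, with log2 fold changes of −2.49 ± 0.43 after IFN-γ (edgeR adjusted p = 0.00477) and −2.88 ± 0.42 without cytokine (edgeR adjusted p = 0.00352, a call lost without untreated CKO library 1, at −2.55 and 0.052), and the fatty acid synthase gene Fasn of −1.37 ± 0.22 without cytokine (edgeR adjusted p = 0.00248).

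After the cytokines the LXR targets again split. After IFN-γ, 4 of 18 rose and 4 fell in CKO (median −0.20), against 14.7% and 11.9% of all genes, and 2 rose and 7 fell in WT (median −0.27), against 12.4% and 11.8%, the last count falling to 4 without untreated WT library 2 or IFN-γ WT library 2. After IL-4, 4 rose and 3 fell in CKO (median 0.24), against 11.2% and 11.3%, with 2 risers without untreated CKO library 1 or IL-4 CKO library 2. Arl4c, a small GTPase tied to cholesterol export, fell after IFN-γ, with log2 fold changes of −1.53 ± 0.11 in CKO (edgeR adjusted p = 7.04e-07) and −0.98 ± 0.11 in WT (edgeR adjusted p = 3.5e-05), while Lpl, lipoprotein lipase, rose by 1.62 in CKO (edgeR adjusted p = 1.05e-05) and 1.23 in WT (edgeR adjusted p = 9.98e-05). Smpdl3a, a phosphodiesterase, fell after IL-4 in CKO (−1.41 ± 0.19, edgeR adjusted p = 0.000371) and also in WT (edgeR adjusted p = 0.00515, lost without IL-4 WT library 2). Arl4c rose after IL-4 by 0.47 ± 0.11 in CKO (edgeR adjusted p = 0.00908, lost without IL-4 CKO library 1) and by 1.27 ± 0.11 in WT (edgeR adjusted p = 1.23e-05). Srebf1, the transcription factor gene of fatty acid synthesis, fell after IFN-γ in WT (−0.36 ± 0.10, edgeR adjusted p = 0.0227, lost without untreated WT library 1 or 2 or IFN-γ WT library 2) and was lower in CKO than in WT without cytokine (−0.40 ± 0.10, edgeR adjusted p = 0.0216, lost without untreated CKO library 1, at −0.36 and 0.118, or untreated WT library 1 or 2). Pltp, the phospholipid transfer protein gene, was higher in CKO than in WT after IFN-γ by 0.85 ± 0.18 (edgeR adjusted p = 0.00768, lost without IFN-γ CKO library 2 or IFN-γ WT library 1). Mertk, a receptor for the uptake of dying cells, was higher in CKO without cytokine by 1.09 ± 0.24 (edgeR adjusted p = 0.0125, lost without untreated CKO library 1, at 0.77 and 0.107, or untreated WT library 1 or 2). The apolipoprotein genes Apoc1 and Apoc2 were not tested, at 0.304 CPM at most and at 0 CPM.

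Of 20 PPAR target genes, 18 were tested. Between genotypes, 4 were higher and 4 lower in CKO after IFN-γ, against 10.4% and 8.01% of all genes. The counts were 1 and 1 after IL-4, against 1.41% and 1.55%, and 3 and 3 without cytokine, against 8.6% and 9.37%. After IFN-γ, 7 rose and 3 fell in CKO (median 0.23), against 14.7% and 11.9% of all genes. In WT, 3 rose and 2 fell after IFN-γ (median −0.03), against 12.4% and 11.8%. After IL-4, 6 rose and 1 fell in CKO (median 0.20, with 3 falling without untreated CKO library 2), against 11.2% and 11.3% of all genes, and 5 rose and none fell in WT (median 0.24), against 6.64% and 5.59%, where 2 or 3 rose without any 1 of the 4 compared libraries or of the IFN-γ CKO libraries. Klf4, a transcription factor gene, stood after IL-4 at 66.6 ± 2.04 CPM in CKO and 59.4 ± 4.79 CPM in WT (SD, n = 2 each), against 6.50 ± 0.277 CPM in untreated CKO and 6.33 ± 0.795 CPM in untreated WT. After IFN-γ it stood at 21.4 ± 0.638 CPM in CKO and 5.26 ± 0.294 CPM in WT, and its IFN-γ response differed between genotypes by 1.98 ± 0.18 on the log2 scale (edgeR adjusted p = 0.000274), kept in all 12 fits that left out a library. Fabp4, a fatty acid carrier, was lower in CKO without cytokine (−2.21 ± 0.29, edgeR adjusted p = 0.00116) and rose after IL-4 in CKO by 2.49 ± 0.30 (edgeR adjusted p = 0.000227). Plin2, which coats lipid droplets, was higher in CKO after IFN-γ by 1.13 ± 0.13 (edgeR adjusted p = 0.000163), and Cd36, a scavenger receptor for lipids, was lower there (−0.96 ± 0.14, edgeR adjusted p = 0.000745). Angptl4, an inhibitor of lipoprotein lipase, averaged 4.45 CPM in CKO and 1.23 CPM in WT without cytokine (1.84 ± 0.29, edgeR adjusted p = 0.00204).

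Of 27 receptor partners and coregulators, 22 were tested. Between genotypes, 5 were higher and 2 lower in CKO after IFN-γ, against 10.4% and 8.01% of all genes. Without cytokine, 4 were higher and 1 lower, against 8.6% and 9.37%. After IL-4, 0 were higher and 0 lower, against 1.41% and 1.55%. Rxrg, another RXR gene, was at 0 CPM in every library and Ppara reached 0.038 CPM at most, so neither was tested. Rxrb, the widely expressed RXR gene, was higher in CKO without cytokine by 0.95 ± 0.13 (edgeR adjusted p = 0.00102). The corepressor gene Ncor1 and the receptor gene Ppard were called in no comparison. After IFN-γ, 6 rose and 4 fell in CKO (median 0.02), against 14.7% and 11.9% of all genes, and 5 rose and 2 fell in WT (median 0.10), against 12.4% and 11.8%, where 1 fell without untreated WT library 1 or IFN-γ WT library 2. Vdr, the vitamin D receptor gene, was lower in CKO than in WT after IFN-γ (log2 fold change −2.13 ± 0.26, edgeR adjusted p = 0.000189), with 1.46 ± 0.277 CPM in CKO and 6.40 ± 0.609 CPM in WT (SD, n = 2 each).

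Of 21 genes of oxysterol metabolism and sterol sensing, 16 were tested. After IFN-γ, 7 fell and 1 rose in CKO (median −0.28), against 11.9% and 14.7% of all genes lower and higher, and 10 fell and 1 rose in WT (median −0.73), against 11.8% and 12.4%, with 6 to 9 and 8 to 11 falling across the fits that left out a library. Hmgcs1 and Cyp51, enzymes of cholesterol synthesis, fell, with log2 fold changes of −1.11 ± 0.10 for Hmgcs1 and −0.84 ± 0.11 for Cyp51 in CKO and of −1.76 ± 0.10 and −1.54 ± 0.11 in WT. Insig1, a sterol sensor, also fell, by the same measure −1.04 ± 0.11 in CKO and −1.61 ± 0.11 in WT. Gpr183, the receptor for oxysterols made from the product of CH25H, stood after IFN-γ at 5.01 ± 0.592 CPM in CKO and 3.36 ± 0.17 CPM in WT (SD, n = 2 each), against 19.2 ± 0.969 CPM in untreated CKO and 22.9 ± 0.83 CPM in untreated WT. Its log2 fold change was −1.94 in CKO (edgeR adjusted p = 2.3e-07) and −2.77 ± 0.13 in WT (edgeR adjusted p = 1.65e-08). Hsd3b7, an enzyme that degrades oxysterols, rose by 1.90 ± 0.17 in CKO (edgeR adjusted p = 5.74e-06) and 0.92 ± 0.17 in WT (edgeR adjusted p = 0.0018). Cyp7b1, which acts on the product of CH25H, reached 0.038 CPM at most and was not tested.

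Without cytokine, 8 of these 16 sterol genes were lower in CKO than in WT and none was higher (median −0.45), against 9.37% and 8.6% of all genes, with 5 lower without untreated WT library 2. Cyp51 stood at 85.1 ± 5.23 CPM in CKO and 164 ± 15.2 CPM in WT (log2 fold change −0.94 ± 0.11, edgeR adjusted p = 0.000311). The genotypes differed in 3 of these genes after IFN-γ, 2 higher and 1 lower in CKO against 10.4% and 8.01% of all genes, and none was higher without IFN-γ CKO library 2 or IFN-γ WT library 2, and 1 without IFN-γ CKO library 1. The gene lower in CKO was the sterol hydroxylase gene Cyp27a1, at 3.25 ± 0.819 CPM in CKO and 8.45 ± 1.47 CPM in WT (−1.37 ± 0.35, edgeR adjusted p = 0.0214). That call was lost without IFN-γ CKO library 1 or 2 or IFN-γ WT library 1. After IL-4, 8 rose in CKO (median 0.42) against 11.2% of all genes, a count of 4 without untreated CKO library 1 or IL-4 CKO library 2, and 1 rose in WT against 6.64%, a count of 0 without any 1 of the 4 compared WT libraries or of the IFN-γ CKO libraries. The IFN-γ responses of Hmgcs1, Cyp51 and Gpr183 differed between genotypes by 0.65, 0.70 and 0.83 (edgeR adjusted p = 0.0365, 0.0382 and 0.0297), and each of these 3 calls was kept in 3 of 12 fits that left out a library and lost without untreated CKO library 1 (0.56, 0.61 and 0.75, edgeR adjusted p = 0.085, 0.0859 and 0.0638), 7 genes of the list being called without untreated CKO library 2 and 0 or 1 without any of 9 others. Srebf2, the transcription factor gene of cholesterol synthesis, was called neither between genotypes nor for a cytokine against untreated cells.

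Of 22 genes of cholesterol transport and storage, 19 were tested, with 7 rising and 5 falling after IFN-γ in CKO (median −0.20), against 14.7% and 11.9% of all genes, and 4 rising and 5 falling in WT (median −0.14), against 12.4% and 11.8%. Msr1, a scavenger receptor, rose by 1.83 ± 0.12 in CKO (edgeR adjusted p = 2.96e-07) and 1.05 ± 0.12 in WT (edgeR adjusted p = 3.34e-05). Npc1, which moves cholesterol out of lysosomes, fell, at −0.48 ± 0.09 in CKO (edgeR adjusted p = 0.00186) and −0.41 ± 0.09 in WT (edgeR adjusted p = 0.00599). Scarb1, which takes up cholesterol from high-density lipoprotein, rose in CKO by 0.61 ± 0.11 (edgeR adjusted p = 0.00111). In WT, Soat1, which esterifies cholesterol, fell (−0.50 ± 0.11, edgeR adjusted p = 0.0066), as did Nceh1, which hydrolyses cholesterol esters (−0.55 ± 0.08, edgeR adjusted p = 0.000479). Lipa, the lysosomal acid lipase gene, fell in CKO (−0.47 ± 0.12, edgeR adjusted p = 0.0139, lost without untreated CKO library 1, at −0.35 and 0.0858, or IFN-γ CKO library 1 or 2), and Abca7 was called in no comparison. Of 12 genes of phospholipid remodelling, 11 were tested, and after IFN-γ 5 rose in CKO (median 0.41) against 14.7% of all genes, a count of 3 without IFN-γ CKO library 1, and 4 rose in WT (median −0.01) against 12.4%, a count of 2 without untreated WT library 1 or 2 or IFN-γ WT library 1. Lpcat1, an acyltransferase gene, was lower in CKO than in WT after IFN-γ (−0.53 ± 0.10, edgeR adjusted p = 0.0037, lost without IFN-γ CKO library 2). Between genotypes, 4 of these 11 phospholipid genes were higher and 2 lower in CKO after IFN-γ, against 10.4% and 8.01% of all genes. Without cytokine 3 were higher and 2 lower, against 8.6% and 9.37%. After IL-4, 0 rose and 3 fell in CKO, against 11.2% and 11.3%, and 1 rose and 3 fell in WT, against 6.64% and 5.59%. Lpcat2, the paralog of Lpcat1, was higher in CKO after IFN-γ (1.26 ± 0.15, edgeR adjusted p = 0.00017). It fell after IL-4, at −1.70 ± 0.15 in CKO (edgeR adjusted p = 1.59e-05) and −1.91 ± 0.16 in WT (edgeR adjusted p = 1.09e-05). The counts of rising transport genes in CKO fell to 4 without IFN-γ CKO library 2, and those of falling ones to 3 without untreated CKO library 1 or IFN-γ CKO library 1 or 2.

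**Figure D5:**
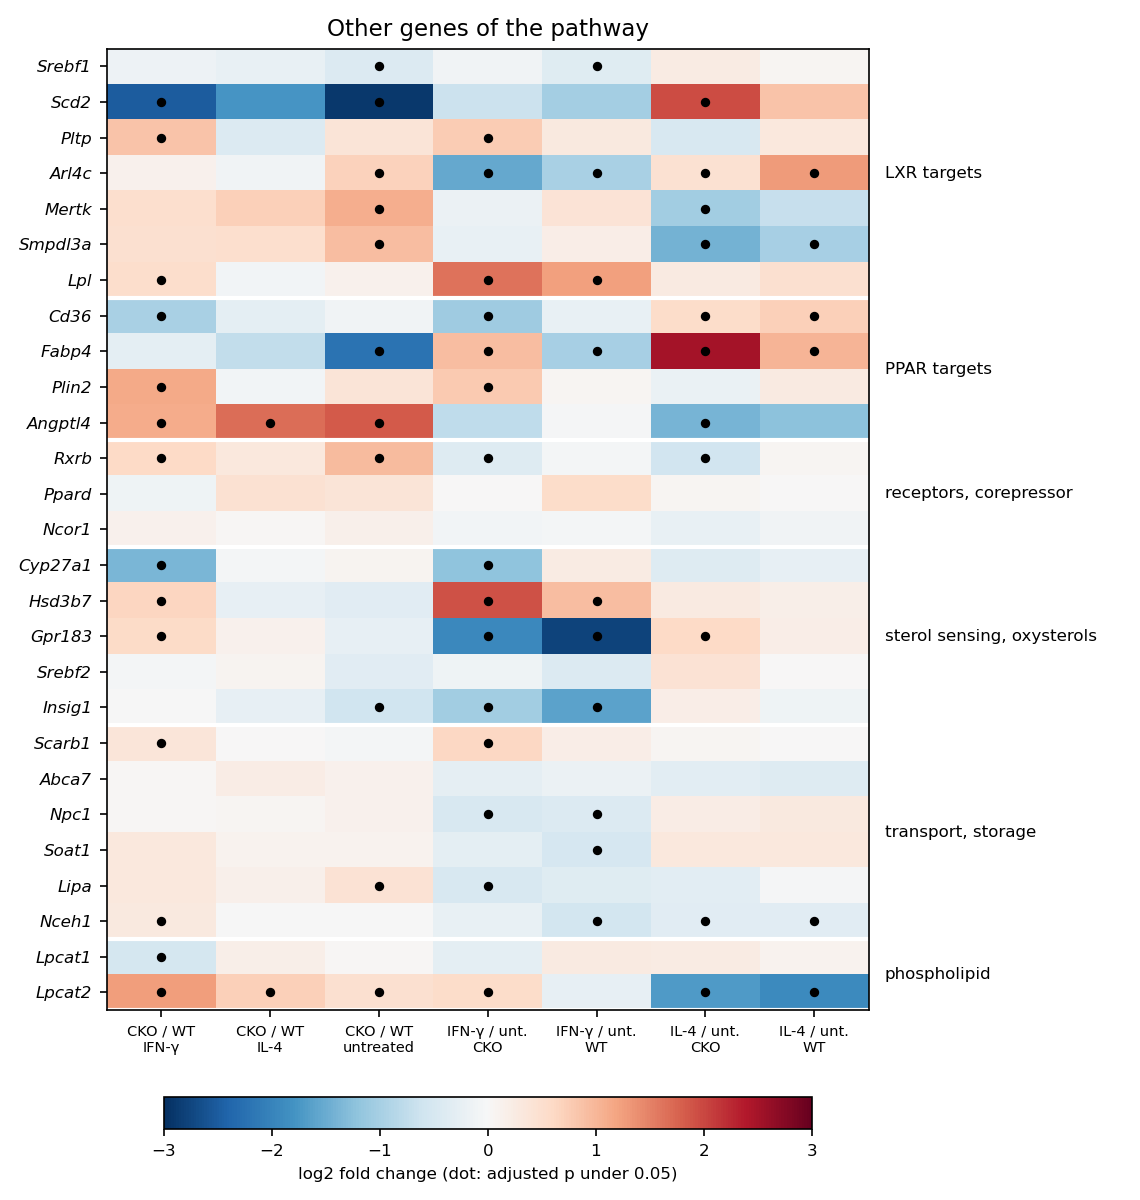
Log2 fold change (colour scale) of 27 further genes of the pathways in 7 comparisons, with a black dot where the edgeR adjusted p was under 0.05. After IFN-γ Gpr183 is at −1.94 in CKO and −2.77 in WT and Insig1 at −1.04 and −1.61, while the LXR targets take both signs in each column.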

How the data were processed

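RNA from 12 libraries of mouse bone-marrow-derived macrophages was enriched for exons with capture probes, per the labels' protocols. The deposited table holds whole-number counts of reads per gene, and the submitters' processing notes name TopHat2 2.0.13, HTSeq 0.6.1, CASAVA 1.8.2 and Picard 1.97, with mm10 and GRCh38 listed without a role. The sources used here do not give the strand setting or the annotation release. Total counts were 21287725 to 32717379 per library, and 22932 of 48440 genes had no count.

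The counts were fitted with edgeR 4.0.16 (R 4.3.3, limma 3.58.1) as 6 group means with 6 residual degrees of freedom, TMM scaling, the low-count filter of filterByExpr (16292 genes kept), robust dispersion, the quasi-likelihood F test and Benjamini-Hochberg adjustment at 0.05 over all tested genes. The SE of a log2 fold change is its size divided by the square root of F and is approximate. The procedure was tested on simulated data. Alternatives were DESeq2 1.42.0, its size factors, no filter, a mean of at least 5 CPM, only the compared groups, library number as a block, and leaving out each library. Libraries were grouped by label, and the labels do not say what the library numbers stand for. Deviations of same-numbered libraries from their group means correlated by 0.100 to 0.431 within a genotype and −0.005 to 0.256 across genotypes. There were 2 numbers only, taken from the library titles, and the labels do not say whether they pair libraries across treatments. Pattern likeness used log2 CPM with a prior count of 2 and genes with a mean of at least 3.

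Gene positions and exon lengths come from GENCODE M21 (GRCm38), where Abcg1, Mylip and Ch25h carry another version number than in the table, and promoters from RefSeq. The 10 genes and all lists were chosen with earlier results of these data known. Genes named from the lists are a set chosen by name, plus up to 2 more with the smallest adjusted p per list and comparison. Some of these genes are not reported here.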

Additional observations from a re-analysis of the deposited data

Results flagged for a closer look

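The response of Nr1h3 to IFN-γ differed between CKO and WT macrophages by 1.69 on the log2 scale, CKO minus WT, in edgeR's interaction test (adjusted p = 0.00123). Nr1h3 stood at 52.6 and 48.6 CPM after IFN-γ against 16.2 and 12.8 CPM without it in CKO, and at 5.84 and 5.04 CPM after IFN-γ against 5.24 and 4.78 CPM without it in WT.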

How the results depend on the processing

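No log2 fold change of the 10 genes that had been called changed sign in any alternative. DESeq2 size factors moved the median of all genes by at most 0.013 on the log2 scale and changed none of 110 calls. DESeq2 added 3 calls and lost none, as did a mean of at least 5 CPM, and the count between genotypes after IFN-γ became 5 in both. With no filter, 24 calls were added, and the members called were 7 between genotypes after IFN-γ, 5 after IL-4 and 7 without cytokine, 7 for IL-4 in WT, and 3 for the IL-4 interaction. Of all genes in that fit, 15.3%, 4.43%, 15.6%, 10.4% and 1.14% were called in these comparisons. It gave very small p-values to genes of wide spread, so its added calls are listed as an alternative only. For Abca1 between genotypes without cytokine the edgeR adjusted p was 2.24e-16, against 0.189 in the reported fit. With only the groups compared, 11 were added and 7 lost, giving 7 between genotypes after IFN-γ and 2 without cytokine, and 4 for IL-4 in CKO and 7 in WT. The cause was not tested. Library number as a replicate block gave 6 between genotypes after IFN-γ and 2 after IL-4, adding 7 and losing 1, Abca1 after IL-4 in CKO (edgeR adjusted p = 0.054). Number within genotype as a block gave 7 for IL-4 in WT and 2 for the IL-4 interaction. It added 11 calls, each given in the report, and lost none.

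Leaving out 1 library, taking the one left in its group to vary as the other groups do, gave 1 to 5 members between genotypes after IFN-γ, 1 to 3 after IL-4 and 1 to 4 without cytokine. It gave 4 to 8 for IFN-γ in CKO and 3 to 5 in WT, 4 to 7 for IL-4 in CKO and 2 to 5 in WT, 3 to 4 for IFN-γ against IL-4 in CKO and 3 to 6 in WT, and 1 and 0 to 1 for the IFN-γ and IL-4 interactions. Over all genes, the count between genotypes was 836 with only those groups against 2927 in the reported fit without cytokine, and 866 to 5034 when a library was left out. That after IFN-γ was 1209 to 3925 when a library was left out, against 2995. After IL-4 it was 128 to 679 when a library was left out, 310 with only those groups, 290 with a mean of at least 5 CPM, 860 with the number block and 1129 with no filter, against 482. With only the compared groups IL-4 called 1216 genes in CKO against 3664, and 3562 in WT against 1992 (3023 with the block within genotype). Leaving out a library gave 1725 to 5217 for IL-4 in CKO and 898 to 2499 in WT, and 2675 to 5256 for IFN-γ in CKO and 2611 to 4581 in WT, against 4333 and 3935. The IFN-γ interaction called 443 genes, 137 without IFN-γ CKO library 2 and 940 without untreated CKO library 2 at the extremes of leaving out 1 library, 289 with only those groups, 732 with the number block, 1080 with the block within genotype and 1019 with no filter. The IL-4 interaction called 6, against 1 to 6 without any 1 of the other 11 libraries and 329 without untreated CKO library 2, 0 with only those groups, 26 and 85 with the blocks, 40 with DESeq2 and 291 with no filter. Low counts limit Ch25h, at 7 counts in all in untreated CKO and 31 in untreated WT.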

Other observations

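Chosen after the values were seen, the ratio of library 1 to library 2 within each group is given for the export genes. In CKO, after IFN-γ, after IL-4 and without cytokine, Abca1 stood at 1.59, 2.76 and 2.83, Apoe at 1.31, 1.82 and 1.72, Abcg1 at 1.19, 1.62 and 1.83, and Mylip at 1.18, 1.40 and 1.49, while Nr1h3 stood at 1.08, 1.07 and 1.27 and Ch25h at 0.470, 0.165 and 0.987. In WT, Abca1 stood at 0.771, 1.06 and 0.671, Abcg1 at 0.907, 0.741 and 0.714, and Apoe at 1.29, 1.22 and 1.13. These are values only, and what the library numbers stand for is not given in the labels.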
